A study of Mus musculus with 6 samples.

Results

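The genes described here encode 10 transcription factors. They are Nfe2, its relatives Nfe2l1 and Nfe2l2, the small MAF genes Mafg, Mafk and Maff, the repressors Bach1 and Bach2, the forkhead factor Foxo3 and the zinc finger factor Ikzf1. The members were all probe sets of the Mouse430_2 array that its annotation pairs with 1 of these symbols alone, 18 probe sets among 45037, and the 10 genes are among 18193 genes measured. The data are 6 arrays of RNA from mouse fetal livers of embryonic day 14.5, sorted or selected as Ter119-positive by a method the labels do not name, 3 labelled wild type and 3 labelled STAT5 KO. Maturing red cell precursors carry the Ter119 antigen on their surface, and STAT5 is a transcription factor pair that the erythropoietin receptor activates. Each array holds 1 pool of 3 to 5 embryos of 1 genotype. Neither the strain nor the STAT5 allele, nor whether the controls were littermates, is given in the sources used here. The comparison asks which transcripts of fetal erythroid cells differ when STAT5 is missing.

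NFE2 is a basic leucine zipper protein that binds DNA as a pair with a small MAF protein, and it is known for its part at the globin loci of red cells and in platelet formation by megakaryocytes. The small MAF proteins have no activation domain of their own, so their partner sets the outcome: NFE2, NRF1 (Nfe2l1) and NRF2 (Nfe2l2) activate, whereas BACH1 and BACH2 repress at the same kind of element. BACH1 is released from DNA when it binds heme, which ties antioxidant, ferritin and globin genes to the supply of heme. FOXO3 drives antioxidant and maturation genes of erythroblasts and is held out of the nucleus by AKT, a kinase downstream of the erythropoietin receptor, and IKZF1 (Ikaros) is a factor of lymphoid cells that also takes part in globin switching.

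Values are linear intensities, called signals, on which each array has the same trimmed mean. The control level is a signal of 162.5, under which 95% of the 27 probe sets for Bacillus subtilis transcripts lie when all arrays are pooled. A difference is the mean log2 signal of the knockout arrays less that of the wild type arrays. Its standard error (SE) comes from limma without a mean-variance trend, and the 95% intervals come from the same model with the trend. Signals of different probe sets are not compared, since probe sets hybridise unequally. The 4 probe sets of Stat5a and Stat5b read 178.3 to 731.9 in wild type and 3.33 to 333.6 in knockout arrays, and the genotypes did not overlap at any of the 4. Of 15 erythroid markers listed, 12 were measured, and all of them had a mean above the control level in at least a single genotype. The same held for all 12 measured hepatocyte markers. In such bulk samples fewer cells of a type and less RNA per cell cannot be told apart. Precision is limited by the number of arrays: an exact two-sided permutation test of 3 against 3 cannot give a p below 0.1.

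Among the 10 genes, Nfe2l2 and Bach1 differed in opposite directions, without overlap of the groups at 1 probe set each. The activator read 1.31-fold higher at 1416543_at and the repressor 1.27-fold lower at 1440831_at in knockout pools. The second Bach1 probe set was also lower but had overlapping groups, and the second Nfe2l2 probe set lay below the control level. Nfe2 itself, Nfe2l1, Mafk and the bright Foxo3 probe sets differed by 0.16 or less on the log2 scale in either direction. The 2 probe sets of Mafg differed in opposite directions, and at 1434054_at, the lower one in knockout, the groups did not overlap either. Of the 18 probe sets, 8 were lower and 10 higher in knockout, with a median difference of 0.05, where the median of all probe sets was -0.07 and 56.2% of them were lower. Groups did not overlap with 3 of the 18 (15.8% of all probe sets), 1 of them higher in knockout (6.84%) and 2 lower (8.95%), so that the share is near the background. No member passed an adjusted p of 0.05 in limma without a trend (0% of all probe sets called, adjusted p between 0.658 and 0.974). None passed with the trend either (0.155% called, adjusted p between 0.398 and 0.987). An unadjusted p under 0.05 was reached by 0 members without the trend (8.01% of all probe sets), by 2 with it (9.97%) and by 2 in the methods' t-test, to which the submitters' test comes down for 2 groups (8.68%), in both cases Nfe2l2 and Bach1. The submitters' criterion, which adds a fold over 1.5, was met by 0 of the 18 and by 5.19% of all probe sets. Of the 18 probe sets, 15 of 9 genes had a mean over the control level in 1 genotype or both. The other 3, of Nfe2l2, Maff and Foxo3, had not.

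**Figure D1:**
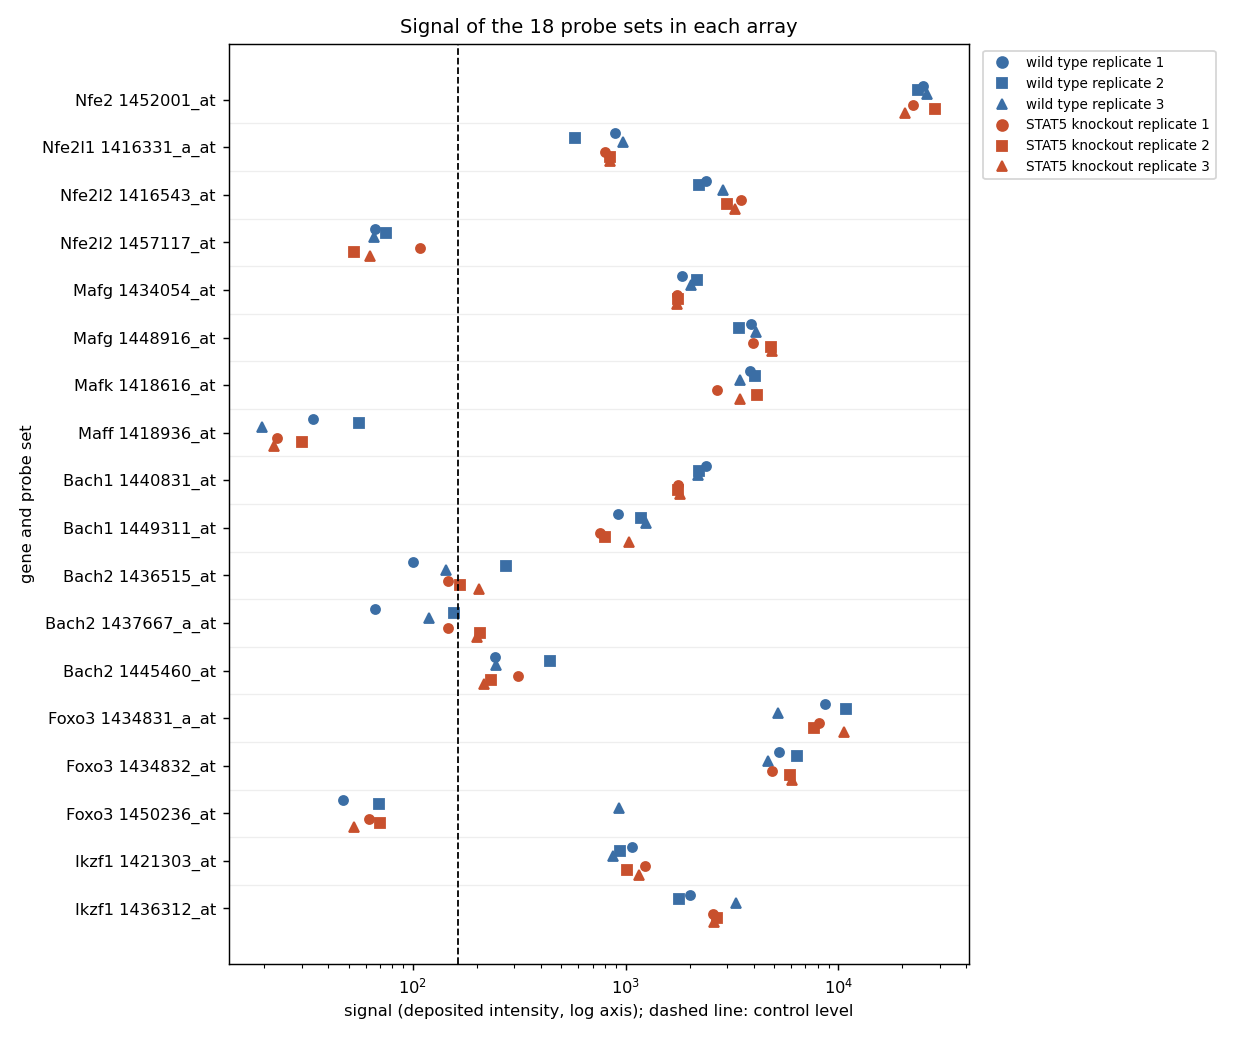
Signal of each of the 18 probe sets (rows) in each of the 6 arrays on a log axis, wild type in blue and STAT5 knockout in red, with 1 symbol per replicate number and the control level of 162.5 as a dashed line. Knockout arrays lie apart from wild type arrays for Nfe2l2 1416543_at, Mafg 1434054_at and Bach1 1440831_at, and wild type replicate 3 lies alone for Foxo3 1450236_at.

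The upstream sequences of Nfe2l2, Mafg and Bach1 are shown because these genes have the probe sets whose groups did not overlap. They are the 250 bases before the start site in RefSeq on GRCm38.p6, from a table that holds 16 start sites for 9 of the 10 genes. That window and the 50 bases after the start were searched on both strands for a STAT5 element, TTCNNNGAA, and for the core of the antioxidant response element, TGACNNNGC, at which NRF2 and small MAF proteins bind. Capitals mark a match.
Nfe2l2, chr2:75704664-75704913, minus strand: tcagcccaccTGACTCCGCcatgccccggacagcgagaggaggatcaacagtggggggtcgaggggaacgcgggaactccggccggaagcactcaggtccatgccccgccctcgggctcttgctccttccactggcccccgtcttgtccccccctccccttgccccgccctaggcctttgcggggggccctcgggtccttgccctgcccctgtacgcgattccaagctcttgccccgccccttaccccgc
Mafg, chr11:120633548-120633797, minus strand: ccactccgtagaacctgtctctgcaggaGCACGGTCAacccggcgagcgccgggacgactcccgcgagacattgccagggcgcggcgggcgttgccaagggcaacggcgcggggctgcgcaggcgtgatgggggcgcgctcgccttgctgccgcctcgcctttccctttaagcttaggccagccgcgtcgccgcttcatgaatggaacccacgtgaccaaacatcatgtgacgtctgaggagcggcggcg
Bach1, chr16:87698704-87698953, plus strand: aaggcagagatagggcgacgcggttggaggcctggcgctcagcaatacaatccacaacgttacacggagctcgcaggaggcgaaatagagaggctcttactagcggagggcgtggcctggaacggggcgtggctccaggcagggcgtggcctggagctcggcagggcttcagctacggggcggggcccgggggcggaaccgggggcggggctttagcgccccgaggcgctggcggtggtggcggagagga
The Nfe2l2 window holds 1 core from position -240, and the Mafg window 1 on the opposite strand from position -222, both counted from the start site. The Bach1 window holds neither motif. No window of these 3 genes holds the STAT5 letters. Among the other members 1 start site each of Mafk and Maff has the core, and 1 each of Bach2, Ikzf1 and Maff the STAT5 letters. Of 32851 promoters of the same length, 12.4% hold the core and 8.3% the STAT5 letters. A match is a run of letters and not a site of binding, which was not measured.

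NFE2, the erythroid partner of the small MAF proteins, was measured by 1 bright probe set. The signals of Nfe2 were 24942.5, 23663.7 and 25974.1 in wild type and 22430.7, 28498.8 and 20589.2 in knockout pools. The knockout pools lay on both sides of the narrow wild type range. The difference was -0.07 (SE 0.22), with an interval of -0.42 to 0.27 (adjusted p = 0.940 by limma, 0.910 with the trend). It turned to 0.04 after median centring of the arrays and to 0.03 without knockout replicate 3.

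Nfe2l1 encodes NRF1, which is known for driving proteasome genes. Its signals were 892.9, 581.4 and 970.3 in wild type and 802.0, 842.0 and 848.2 in knockout pools, so that the knockout pools lay inside the wild type range. The difference was 0.06 (SE 0.26, interval -0.41 to 0.54), and -0.16 without wild type replicate 2, the lowest of all arrays.

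Nfe2l2 encodes NRF2, the inducible activator of antioxidant genes that KEAP1 marks for degradation. At probe set 1416543_at the signals were 2388.8, 2214.8 and 2863.6 in wild type and 3492.1, 2990.7 and 3282.5 in knockout pools. Every knockout array lay above every wild type array, although knockout replicate 2 was close to wild type replicate 3. The levels were 11.27 ± 0.19 and 11.67 ± 0.11 (mean log2 signal ± SD, n = 3 each), a difference of 0.39 (SE 0.21). The interval was 0.07 to 0.72 with the trend and -0.13 to 0.91 without it. The adjusted p was 0.672 by limma and 0.405 with the trend. Leaving out any 1 array gave 0.31 to 0.50. Quantile normalization gave 0.34 and median centring 0.51, and after median centring the groups overlapped. The other Nfe2l2 probe set, 1457117_at, read 53.1 to 108.2 and lay below the control level in every array, so it gives no fold.

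Bach1, the heme-sensing repressor, was measured by 2 probe sets that both lay well above the control level. At 1440831_at the signals were 2398.1, 2208.2 and 2198.8 in wild type and 1768.7, 1768.2 and 1797.8 in knockout pools. The knockout pools were almost equal to one another and all below wild type. The difference was -0.35 (SE 0.19, interval -0.63 to -0.07), from 11.15 ± 0.07 to 10.80 ± 0.01, with an adjusted p of 0.670 by limma and 0.398 with the trend. The methods' t-test gave it an adjusted p of 0.286, and limma without the trend an interval of -0.81 to 0.11. At 1449311_at the signals were 917.8, 1175.9 and 1246.2 in wild type and 758.5, 798.3 and 1034.5 in knockout pools. Here knockout replicate 3 lay above wild type replicate 1, and the difference was nearly the same, -0.37 (SE 0.24, interval -0.80 to 0.06). Without 1 array the first probe set gave -0.37 to -0.31 and the second -0.50 to -0.28. Median centring reduced both, to -0.24 and -0.25, and quantile normalization gave -0.42 and -0.40. At 1440831_at the groups stayed apart under both scalings.

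**Figure D2:**
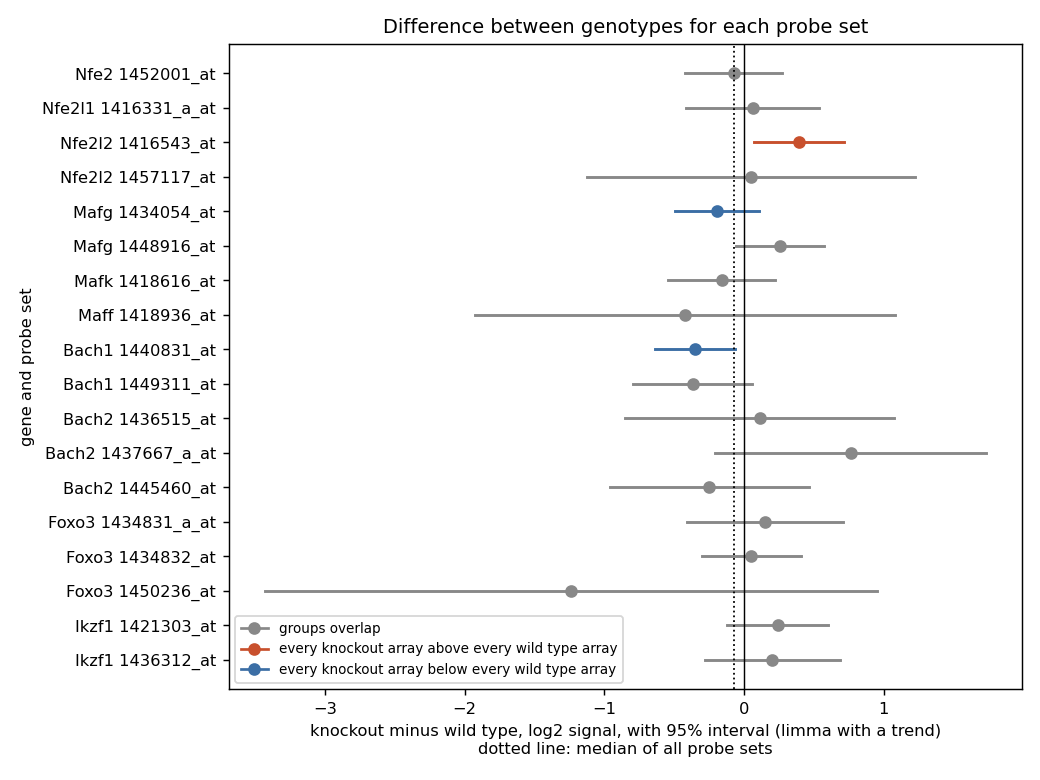
Difference of log2 signal, knockout minus wild type, for each of the 18 probe sets (points), with the 95% interval of limma's fit with a trend (lines), and the median of all probe sets (-0.07) as a dotted line. The intervals of Nfe2l2 1416543_at and Bach1 1440831_at lie on opposite sides of 0, those of all others include 0, and the widest belong to the dim probe sets and to Foxo3 1450236_at. Without the trend, the intervals of Nfe2l2 1416543_at and Bach1 1440831_at include 0 too (not drawn).

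The balance of the activator to the repressor was read as the ratio of the Nfe2l2 signal to the Bach1 signal of the same array, in which any scale factor of the array cancels. The ratio was chosen after the values were seen and is given without a test. Its size depends on the probe sets, so only its change between arrays can be read. With Bach1 1440831_at it was 0.996, 1.003 and 1.30 in wild type and 1.97, 1.69 and 1.83 in knockout pools. With Bach1 1449311_at it was 2.60, 1.88 and 2.30 in wild type and 4.60, 3.75 and 3.17 in knockout pools. Both ratios were higher in every knockout array than in every wild type array, by 0.74 and 0.76 on the log2 scale. Each of these is the Nfe2l2 difference less the Bach1 difference. With 1440831_at the separation was fixed in advance, since both genes already lay apart in opposite directions. That ratio therefore adds no evidence to their values. The ratio with 1449311_at reuses the same Nfe2l2 values and is no independent evidence either. Keap1, which encodes the adaptor that targets NRF2 for degradation, had signals of 1605.8, 1266.5 and 1681.5 in wild type and 1772.5, 1973.5 and 2160.3 in knockout pools. Its knockout pools were all above wild type, by 0.38 (SE 0.20, adjusted p = 0.614 by limma), and the ratio of Nfe2l2 to Keap1 differed by 0.01 with overlapping groups.

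In 4 of the 9 marker lists the groups did not overlap in summed signal either. Of all genes, 16.9% had groups without overlap, 7.02% higher and 9.85% lower in knockout. Immature progenitor markers summed to 25761 to 27533 in wild type and 32983 to 35606 in knockout pools, with 5 of 10 members higher without overlap, among them Myb (1.65), Myc (1.10), Cd44 (0.80) and Lmo2 (0.26). The other 5 were lower with overlapping groups, among them Flt3 (-1.42) and Meis1 (-0.56), and Lmo2 alone, at 20364 to 27864, made up most of the sum. Hepatocyte markers summed to 158771 to 266669 and to 135286 to 149495, with all 12 measured members lower in knockout and 9 of them without overlap. The 12 include Alb (-0.43), Afp (-0.32), Ahsg (-1.11) and Fgg (-1.07). Stress and immediate early transcripts, which rise when tissue is dissociated, summed to 35557 to 41007 and to 42740 to 58052, with 14 of 18 higher. Among the higher were Hspa1a (2.28), Jund (0.27) and Btg2 (0.26), while Socs3 was lower (-2.83). Groups did not overlap for 6 higher and 2 lower members of that list. Limma with the trend called 2 of its members at an adjusted p of 0.05, 1 higher and 1 lower (0.44% of all genes called). Megakaryocyte markers summed to 6816 to 25964 and to 5839 to 6791, with 7 of 10 lower and 0 without overlap. The sums of the 2 groups almost met, at 6816 and 6791, and the sum of 25964 belongs to wild type replicate 3. Erythroid markers summed to 325368 to 333011 in wild type and 262466 to 328830 in knockout pools, which overlapped, but 11 of the 12 measured were lower, with a median of -0.19. Groups did not overlap for 3 of them, Tfrc (-0.38), Epb42 (-0.39) and Rhag (-0.31), while Slc4a1 (-0.22) and Alas2 (-0.16) overlapped. Hba-a1 had the lowest difference of the list (-1.32), at a dim probe set that read 28.4 to 419.5, with overlapping groups. The part of these cells or of handling in the values of Nfe2l2 and Bach1 was not tested.

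**Figure D3:**
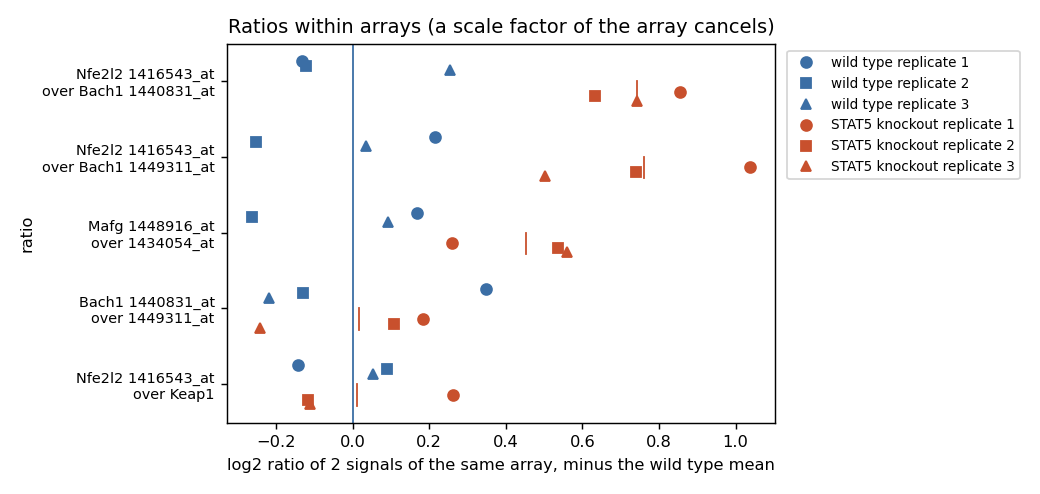
Log2 ratios of 2 signals of the same array, minus the wild type mean of that ratio (x axis), for 5 pairs of probe sets (rows), with 1 symbol per array, wild type in blue and knockout in red, and a red tick at the knockout mean. Both ratios of Nfe2l2 to Bach1 and the ratio between the Mafg probe sets are higher in every knockout array, and the other 2 rows overlap.

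The small MAF proteins are the shared partners of the activators and the repressors. Mafg was measured by 2 probe sets that disagreed. At 1434054_at its signals were 1837.4, 2173.8 and 2037.4 in wild type and 1754.2, 1770.7 and 1748.2 in knockout pools, all knockout pools lying slightly below wild type. The difference was -0.19 (SE 0.19, interval -0.49 to 0.10), and -0.08 after median centring, where the groups overlapped. At 1448916_at the signals were 3889.4, 3415.4 and 4093.9 in wild type and 3955.3, 4836.2 and 4854.8 in knockout pools. Knockout replicate 1 fell within the wild type range, and the difference was 0.26 (SE 0.21, interval -0.06 to 0.57). The ratio of the second to the first was 2.12, 1.57 and 2.01 in wild type and 2.25, 2.73 and 2.78 in knockout pools, higher in every knockout array by 0.45 on the log2 scale. This ratio was chosen after the values were seen. It describes how unequally the probe sets differed in these arrays and was given no test. The transcript forms that the probe sets read were not analysed here.

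Mafk, the small MAF protein first described as a partner of NFE2, had signals of 3849.0, 4048.2 and 3452.9 in wild type and 2683.0, 4144.2 and 3461.5 in knockout pools. Only knockout replicate 1 lay below the wild type range. The difference was -0.16 (SE 0.24, interval -0.54 to 0.22), and 0.005 without that array. The ratio of Nfe2 to Mafk ranged from 5.85 to 7.52 in wild type and from 5.95 to 8.36 in knockout pools. Maff read between 19.6 and 56.1 in all arrays, below the control level, so its probe set gives no fold.

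BACH2, a repressor best known in lymphocytes, was measured by 3 dim probe sets. At 1445460_at, which lay above the control level in every array, Bach2 signals were 244.4, 439.2 and 246.3 in wild type and 312.0, 233.0 and 216.8 in knockout pools. The groups overlapped, and the difference was -0.25 (SE 0.32), or 0.03 without wild type replicate 2. At 1437667_a_at they were 66.4, 157.0 and 118.8 in wild type and 146.6, 206.9 and 199.97 in knockout pools. Of these, 2 knockout arrays and no wild type array exceeded the control level, so that knockout was at least 1.12-fold higher, with measured means of 6.75 and 7.51 (adjusted p = 0.658 by limma, 0.607 with the trend). At this probe set the groups overlapped as deposited but not after quantile normalization (0.89) or median centring (0.88). At 1436515_at they ranged from 100.1 to 273.5 and from 146.4 to 203.8. The probe sets of this gene therefore gave both directions at signals where the interval of a difference spans more than 1 log2 unit. Of 11 measured B lymphoid markers only 4 exceeded the control level in a genotype, and the list summed to 1608 to 1785 in wild type and 1503 to 1721 in knockout pools.

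FOXO3, the forkhead factor of erythroblast maturation, was measured by 2 bright probe sets and 1 dim one. At 1434831_a_at Foxo3 signals were 8630.2, 10823.6 and 5231.9 in wild type and 8150.8, 7678.9 and 10678.7 in knockout pools. At 1434832_at they were 5290.7, 6423.2 and 4648.7 in wild type and 4897.6, 5930.8 and 6075.3 in knockout pools. Wild type replicate 3 was the lowest of all arrays at both, and the groups overlapped. The differences were 0.15 (SE 0.34, interval -0.41 to 0.71) and 0.05 (SE 0.23, interval -0.30 to 0.41). Without wild type replicate 3 they were -0.14 and -0.06.

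The dim Foxo3 probe set, 1450236_at, read 46.8, 69.4 and 932.3 in wild type and 62.2, 69.8 and 52.8 in knockout pools. The single high value belongs to wild type replicate 3, while the other 5 arrays lay below the control level, and the difference of -1.24 (SE 1.13) became 0.10 without it. A further probe set, 1444226_at, which the annotation pairs with Foxo3 and Gm38485 together and which is therefore no member, read 1783.9, 2314.3 and 413.2 in wild type and 1038.8, 989.8 and 1076.9 in knockout pools. There wild type replicate 3 was again the lowest. In that array some megakaryocyte markers were high as well: Ppbp read 3806.3 against 282.5 and 616.3 in the other wild type pools, and Tubb1 10339.2 against 1893.0 and 761.0. The 10 measured megakaryocyte markers summed to 25964 in wild type replicate 3, the highest of all arrays, and to 6816 at the lowest in wild type and 5839 to 6791 in knockout pools. The part of megakaryocytes in the Foxo3 signals was not tested.

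Ikzf1 encodes Ikaros. At 1421303_at its signals were 1076.6, 940.9 and 870.8 in wild type and 1230.8, 1018.3 and 1159.0 in knockout pools, overlapping through wild type replicate 1 and knockout replicate 2. The difference was 0.24 (SE 0.21, interval -0.12 to 0.60). At 1436312_at they were 2000.8, 1787.9 and 3320.3 in wild type and 2578.3, 2690.2 and 2612.1 in knockout pools. The knockout pools were close to one another, and wild type replicate 3 lay above them. Its difference was 0.20 (SE 0.29, interval -0.28 to 0.68), and 0.47 without wild type replicate 3. That array alone made the groups overlap, so their separation without it was fixed in advance. Without the same array 31.7% of all probe sets had groups that did not overlap. Of the other Ikaros family genes, Ikzf2 differed by -0.38 and Ikzf4 by -0.47, both with overlapping groups.

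**Figure D4:**
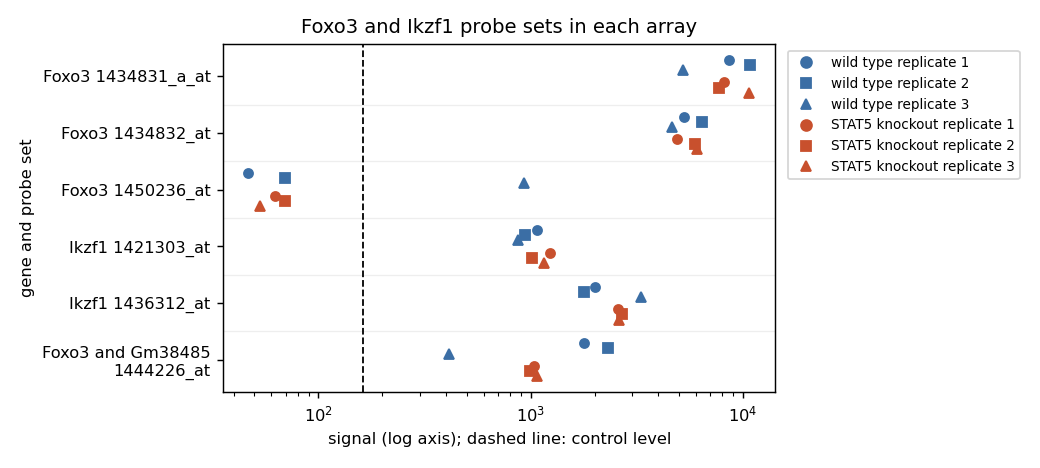
Signals of the 3 Foxo3 and 2 Ikzf1 probe sets and of the probe set shared by Foxo3 and Gm38485 (rows) in each array on a log axis, with the control level as a dashed line. Wild type replicate 3 (blue triangle) is the lowest array at 1434831_a_at, 1434832_at and 1444226_at and the highest at 1450236_at and 1436312_at.

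Genes on which these factors act were read from lists, with 1 probe set per gene and p-values adjusted over all 18193 genes. The median difference of all genes was -0.08, with 58.1% of them lower, and limma called 0.044% of them without the trend and 0.44% with it. Among 23 measured targets of NRF2 and BACH1, 15 were higher and 8 lower, with a median of 0.18, and 0 passed in either fit. Groups did not overlap for 5 higher and 1 lower members, where 16.9% of all genes did not overlap (7.02% higher and 9.85% lower). Gclc, the catalytic subunit of glutathione synthesis, had signals of 4073.5, 2443.1 and 3774.2 in wild type and 4874.3, 5004.9 and 5509.3 in knockout pools. Every knockout pool was above wild type, by 0.61, with an adjusted p of 0.560 by limma and 0.264 with the trend. Abcc4, a membrane exporter, was at least 1.64-fold higher (adjusted p = 0.511 by limma and 0.323 with the trend). Not all well known targets were higher. Hmox1, the heme oxygenase gene that BACH1 represses, read 2774.6, 5497.0 and 5676.9 in wild type and 3308.3, 4037.2 and 10515.6 in knockout pools, highest in knockout replicate 3. Nqo1, a quinone reductase and classical NRF2 target, differed by -0.13, Gclm by -0.17 and the ferritin gene Fth1 by -0.24. These 4 genes were chosen after their values were seen and do not stand for the list, in which most measured targets were higher. The list's median became -0.06 without knockout replicate 3, 0.05 without wild type replicate 3 and 0.29 after median centring.

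The family as a whole, 11 of 13 genes measured, had 6 higher and 5 lower members, a median of 0.06 and 0 calls. Outside the members it added Maf (0.21), Nrl and Nfe2l3, all with overlapping groups. The mean of Nrl lay below the control level in wild type, so that knockout was at least 1.10-fold higher, and that of Nfe2l3 lay below it in both genotypes, which gives no fold. Genes that control the stability or activity of these factors, 12 of 13 of them measured, differed by -0.18 to 0.45, with 10 higher and 0 passing in either fit. Besides Keap1, Ngly1, the glycanase that activates NRF1, differed by 0.27 with overlapping groups. The 31 proteasome subunit genes, which NRF1 drives, had a median of 0.01, with 17 higher, 14 lower and 0 passing. Groups did not overlap for 3 higher and 3 lower subunits (7.02% and 9.85% of all genes). Psma2 (0.35) and Psmc5 (-0.49) had the smallest p-values, and they differed in opposite directions.

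Targets of NFE2 in red cells and megakaryocytes showed 1 call. Lims1, an adaptor protein of integrin adhesions and known as a target of NFE2 in megakaryocytes, had signals of 2788.2, 2544.5 and 2683.8 in wild type and 5275.0, 4668.9 and 4361.3 in knockout pools. All its knockout pools lay far above all wild type pools. It rose by 0.83 (SE 0.17), with an adjusted p of 0.0294 in limma with the trend (0.242% of all genes called higher) and 0.343 without it. Adjusted over all probe sets, as the members were, the same probe set had 0.0555 in limma with the trend and was not called. All 5 probe sets of Lims1 were higher, by 0.63 to 0.86, and every knockout array lay above every wild type array at each of them. With 5 arrays the call ended in each case (adjusted p of 0.0571 to 0.144 in limma with the trend), while the difference stayed between 0.76 and 0.89. Of the 10 measured genes of that list, 8 were lower and the median was -0.25. Tbxas1, the thromboxane synthase gene, differed by -0.72, and Tubb1, the platelet beta tubulin gene, by -2.18, both with overlapping groups. As shown above, the Tubb1 signal of wild type replicate 3 was far above that of the other arrays. Lims1 read much the same in that array as in the other wild type pools. Hbb-b2, an adult beta globin gene whose signal its near-identical paralog can share, differed by -0.16.

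Of 26 measured FOXO3 targets, 14 were higher and 12 lower, with a median of 0.05. With the trend 1 was called, against 0.44% of all genes. Trp53inp1, a stress-induced gene of autophagy and cell death, had signals of 414.4, 365.3 and 471.2 in wild type and 784.1, 910.2 and 1013.4 in knockout pools. Its knockout pools were all above wild type, and it rose by 1.11 (SE 0.20), with an adjusted p of 0.0478 in limma with the trend and 0.284 without it. Without any 1 array that call ended (adjusted p between 0.0548 and 0.246), while the difference stayed between 1.02 and 1.21. Adjusted over all probe sets, the same probe set had 0.0763 in limma with the trend and was not called. At its other probe set the difference was 0.43. Txnip, an inhibitor of thioredoxin, was higher by 0.70 without overlap (adjusted p = 0.0738 in limma with the trend), and so was the autophagy gene Gabarapl1 by 0.62, while Gadd45a, a growth arrest gene, differed by -0.38 and Irs2, an insulin receptor substrate, by -1.06. Gabarapl1, Gadd45a, Irs2, Tubb1 and Hbb-b2 were chosen after their values were seen. Groups did not overlap for 4 higher and 4 lower members of the 26 (7.02% and 9.85% of all genes). Of the other FOXO genes, Foxo1 differed by -0.49 and Foxo4 by -0.13. Regulators of FOXO factors, 11 of 13 of them measured, had a median of 0.14 and 0 calls, with the deacetylase genes Sirt1 at 0.43 and Sirt2 at 0.55, both with overlapping groups.

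**Figure D5:**
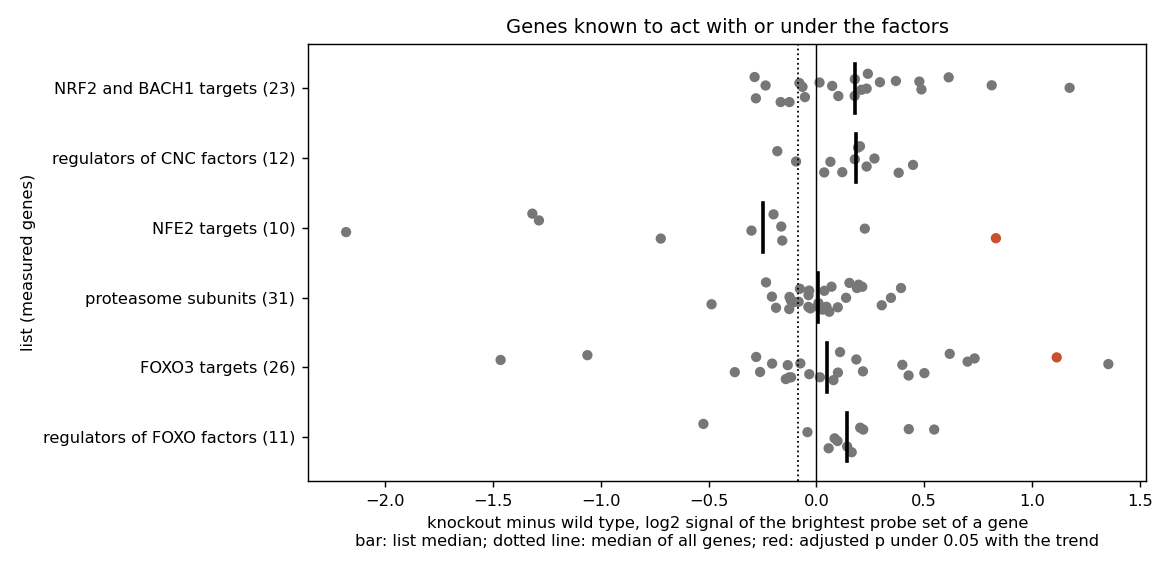
Difference of log2 signal, knockout minus wild type, of each measured gene (points) in 6 lists (rows, with the number of genes measured), list medians as bars and the median of all genes (-0.08) as a dotted line. The 2 red points, Lims1 among NFE2 targets and Trp53inp1 among FOXO3 targets, passed an adjusted p of 0.05 in limma with a trend.

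The genes whose pattern over the 6 arrays was most like that of Nfe2l2 and Bach1 were found by the root mean square difference of log2 deviations from the wild type mean, among 12442 genes above the control level in a genotype. Nfe2l2 was most like Rspry1 (0.034), Ppp4c (0.044) and Bclaf3 (0.044). Bach1 was most like Cyb5r1 (0.039), Dynll1 (0.041) and Wasf2 (0.045). With 6 arrays and so many genes, such closeness is a description only.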

How the data were processed

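Per the labels, each of 6 embryo pools gave the RNA of 1 Affymetrix Mouse430_2 array. Titles gave the groups and the numbers of the replicates. The deposited table holds 1 linear intensity per probe set and array. Per the submitters' processing notes RMA and Partek were used, with no version or order. The deposited values are linear, their medians run from 175.6 to 215.8, and each array has a trimmed mean of 500.003 with 2% left out at each end. The sources used here do not say whether background was corrected.

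All probe sets entered as log2 intensity, unfiltered and with nothing added. Differences were tested with limma 3.58.1 in R 4.3.3 (lmFit and eBayes, knockout against wild type, 3 arrays each) over 45037 probe sets, without 64 control probe sets. P-values were adjusted by Benjamini-Hochberg. The model with a mean-variance trend is given beside it, because dim probe sets vary more (median SD 0.835 below the control level and 0.203 at mean signals over 1000). Probe sets were named from the platform annotation, and 34945 had 1 symbol. For gene lists a gene was represented by its brightest probe set. Named genes were the members, all Stat5 probe sets, and from each list the called genes or, with fewer than 2 calls, the 2 with the smallest p without the trend (from marker lists also the 2 brightest). The 3 genes of most like pattern were named for members whose brightest probe set had groups without overlap. Members and lists were chosen with earlier results of these data known. Where the dimmer group's mean lay under the control level, its values were raised to that level and a fold is "at least". Scripts were tested on simulated data. Deviations of same-numbered arrays were nearly uncorrelated (0.017, 0.029 and 0.029 across probe sets), and the main fits treat the arrays as unpaired. With 3 arrays per group such correlations cannot exclude a pairing. The deposited files name no genome build, so the only positions given are those of upstream sequences, from RefSeq's promoter table on GRCm38.p6.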

Additional observations from a re-analysis of the deposited data

How the results depend on the processing

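No member passed the threshold under any alternative run at an adjusted p, and 8 to 9 of the 18 probe sets were lower in knockout without any 1 array. The groups of 3 members did not overlap as deposited, against 2 with median centring (Bach1 1440831_at and Bach2 1437667_a_at) and 4 with quantile normalization (the same 3 and that Bach2 probe set). That count, added after the data were examined, was 4 to 7 without 1 array, where smaller groups overlap less often (24.4% to 31.7% of all probe sets). All probe sets together had a median of -0.07 as deposited, which median centring moved to 0.04 and quantile normalization to 0.00018.

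The count of probe sets called was 0 in limma without a trend (3606 at an unadjusted p under 0.05), 70 with the trend, 69 with robust estimation as well, 20 without the dimmest 50% and 5 with 32 added before log2. Of genes, 8 were called, 80 with the trend, 66 with robust estimation, 4 by the t-test with adjustment, 15 after quantile normalization, 3 after median centring, 53 without the dimmest 50%, 15 with array weights, and 0 to 0 without 1 array. With the replicate number as a block, 0 genes and 0 probe sets were called, and with the trend as well Lims1 had an adjusted p of 0.0474 and Trp53inp1 of 0.0727. Whether the numbers pair samples is not known.

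The members' median difference was 0.16 after median centring, -0.073 without probe sets ending in _x_at, _s_at or _a_at, and -0.025 to 0.046 without 1 array. The list of CNC and MAF genes (median 0.06) gave 0.17 after median centring, -0.0042 with array weights and -0.070 to 0.087 without 1 array. NRF2 and BACH1 targets gave 0.29 after median centring and -0.056 to 0.19 without 1 array. With probe sets averaged per gene, NFE2 targets gave -0.50, FOXO genes (median -0.13) -0.35 and FOXO regulators -0.026. The FOXO value is that of Foxo3, whose average takes in the dim 1450236_at (-1.24). At that probe set only wild type replicate 3 lay above the control level. FOXO genes gave -0.013 after median centring and -0.19 to -0.029 without 1 array. Ikaros genes (median -0.38) gave -0.24 after quantile normalization and -0.17 without the dimmest 50%.

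The sign of Nfe2 turned after median centring (0.040). Without 1 array differences ran from -0.21 to 0.025 for Nfe2, -0.16 to 0.20 for Nfe2l1, -0.25 to 0.26 for Nfe2l2 1457117_at, -0.31 to 0.0047 for Mafk, -0.22 to 0.51 for Bach2 1436515_at, -0.41 to 0.031 for Bach2 1445460_at, and, for Foxo3, -0.14 to 0.38 at 1434831_a_at, -0.056 to 0.18 at 1434832_at and -2.06 to 0.10 at 1450236_at. The causes were not tested. Signal over background limits Maff, Bach2 and the dim Nfe2l2 and Foxo3 probe sets.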
